A study of Gallus gallus with 51 samples.

Results

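Transcription factor expression in cochlear sensory epithelia was measured 24 hr into recovery from neomycin, an antibiotic of the aminoglycoside class that is toxic to hair cells. Of the 51 arrays of the series, the 16 labelled as neomycin-treated against control at the 24 hr time point were used here, from 3 biological replicates. The epithelia came from cochleae of post-hatch White Leghorn chicks, cultured with neomycin for 24 hr and then without it for a further 24 hr, and were set against time-matched cultures without neomycin. Each biological replicate was a pool of treated and a pool of control epithelia, freed of stroma by enzyme digestion, whose polyA RNA was amplified before labelling. The other arrays, 17 at 0 hr and 18 at 48 hr of recovery, each with 3 replicates of the same treatment and time-matched controls, were used for comparison.

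The chicken hearing organ, unlike that of mammals, replaces hair cells that are lost. The replacements come from supporting cells, which either divide or change directly into hair cells, and transcription factors such as ATOH1 and POU4F3 for hair cells and SOX2 for supporting cells mark and direct these fates. Transcription factors act together with coactivators, corepressors and the general RNA polymerase II machinery, all of which were represented on the array. The question at 24 hr was which of these genes differed between neomycin and control epithelia a day after the drug was removed.

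Each array carried 1536 probes, most of them to human transcription factor genes, printed as 2 spots each, and was hybridised with neomycin and control RNA in different dyes. Values are log2 ratios of neomycin over control signal, so that a negative value is a lower signal in neomycin epithelia. A replicate value is the mean over its arrays within each dye orientation and then over both orientations. Replicate 1 had 8 arrays (3 with neomycin in Cy3 and 5 with neomycin in Cy5), and replicates 2 and 3 had 4 arrays each (2 and 2). After 19 negative-control probes, 8 mismatch probes and the dimmest 15% of gene probes were left out, 1282 probes were tested. The probes were designed to human sequence, so that a value measures signal at that probe and not a verified chicken transcript, and genes are called by the names printed on the array.

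The 3 replicates differed in quality and in size of response. In replicate 1, between 34.6% and 75.9% of the spots of an array lay at or below their local background in Cy5 and between 0.260% and 81.5% in Cy3, and on 6 of its 8 arrays the share was over 50% in at least 1 dye. The highest such share was 8.24% in replicate 2 and 0.618% in replicate 3. Across the 1282 probes, which are not independent replicates, arrays of opposite dye orientation correlated with r between 0.68 and 0.75 in replicate 2, between 0.14 and 0.39 in replicate 3 and between 0.042 and 0.31 in replicate 1. The replicate values themselves correlated with r of 0.0029 between replicates 1 and 2, -0.028 between 1 and 3, and 0.25 between 2 and 3. In bulk epithelia, fewer cells of a type and less RNA per cell cannot be told apart.

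No probe passed the test at 24 hr. In limma, 0 of 1282 probes (0%) had a Benjamini-Hochberg adjusted p under 0.05, and the smallest adjusted p was 0.588. At an unadjusted p under 0.05 there were 107 probes (8.35%), of which 79 (6.16%) averaged lower and 28 (2.18%) averaged higher with neomycin. The larger mean differences were also on the lower side: 24 probes averaged -1 or less on the log2 scale and 0 averaged 1 or more. Most of the large single values were in replicate 2, in which 92 probes lay at -1 or below and 6 at 1 or above. The same counts were 28 and 17 in replicate 1 and 14 and 1 in replicate 3. Without replicate 2 the unadjusted count was 49, of which 23 were lower and 26 higher. Every difference below is therefore a description of these replicates and none of them passed the adjusted threshold. When single arrays were fitted with the replicate as a random block, 37 probes had an adjusted p under 0.05 in limma, 34 lower and 3 higher, but arrays of a replicate are technical copies of 1 pair of RNA pools.

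The lower values lay among the brightest probes. When the tested probes were ordered by mean intensity, the brightest decile (129 probes) held 35 of the 79 lower probes and 4 of the 28 higher probes. The dimmest decile held 1 and 2. The median log2 ratio of the brightest decile reached -0.56 in replicate 2, but was -0.04 in replicate 1 and -0.05 in replicate 3. A probe was called above the negative controls when it was brighter than the 95th percentile of that array's negative-control spots, in the same dye, on at least 50% of the 24 hr arrays, in neomycin or in control RNA. This held for 152 probes, some of which passed through 1 RNA alone. The 19 negative-control probes themselves had a median of 0.06 and means between -0.80 and 0.19 over the 3 replicates, with the lowest single value, -1.80, in replicate 2.

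**Figure D1:**
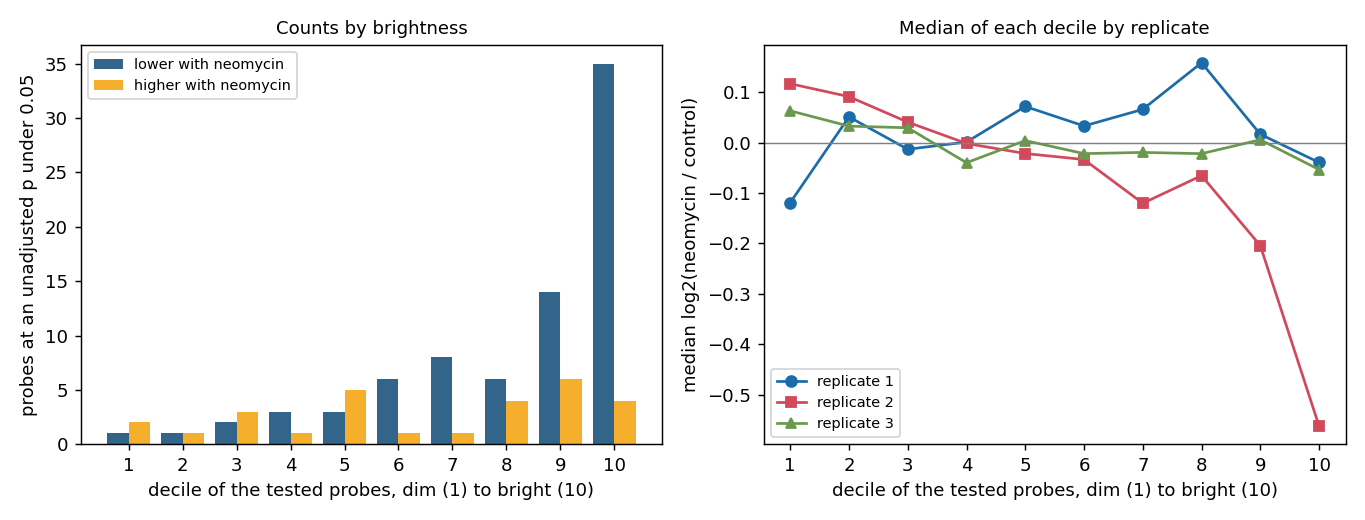
Left, number of tested probes at an unadjusted p under 0.05 in each decile of brightness at 24 hr, lower (blue) and higher (yellow) with neomycin. Right, median log2 ratio of neomycin over control in the same deciles for each replicate. The brightest decile held 35 lower and 4 higher probes, and its median was -0.56 in replicate 2 and near 0 in the other replicates.

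The probes described next were chosen from those above the negative controls, of which 37 were lower and 15 higher in all 3 replicates. Since a probe could enter through the RNA in which it was brighter, these 2 counts describe the choice only. Over all tested probes, with no demand on brightness, 175 (13.7%) were lower and 168 (13.1%) higher in all 3. The 12 with the smallest p in each direction are described here by role. Of the 12 lower probes, only PAF65A, TRAF6 and BRD1 also reached 50% of arrays in neomycin RNA. Of the 12 higher probes, only ESR1, HSAJ2425 and MADH2 also reached 50% of arrays in control RNA. All others entered through the RNA in which they were brighter, so that the size of their ratios is uncertain. The 12 lower probes had means between -1.95 and -0.63 and all had an adjusted p of 0.588. Replicate 2 was the most extreme of the 3 for 9 of these 12, replicate 1 for 2 and replicate 3 for 1.

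**Figure D2:**
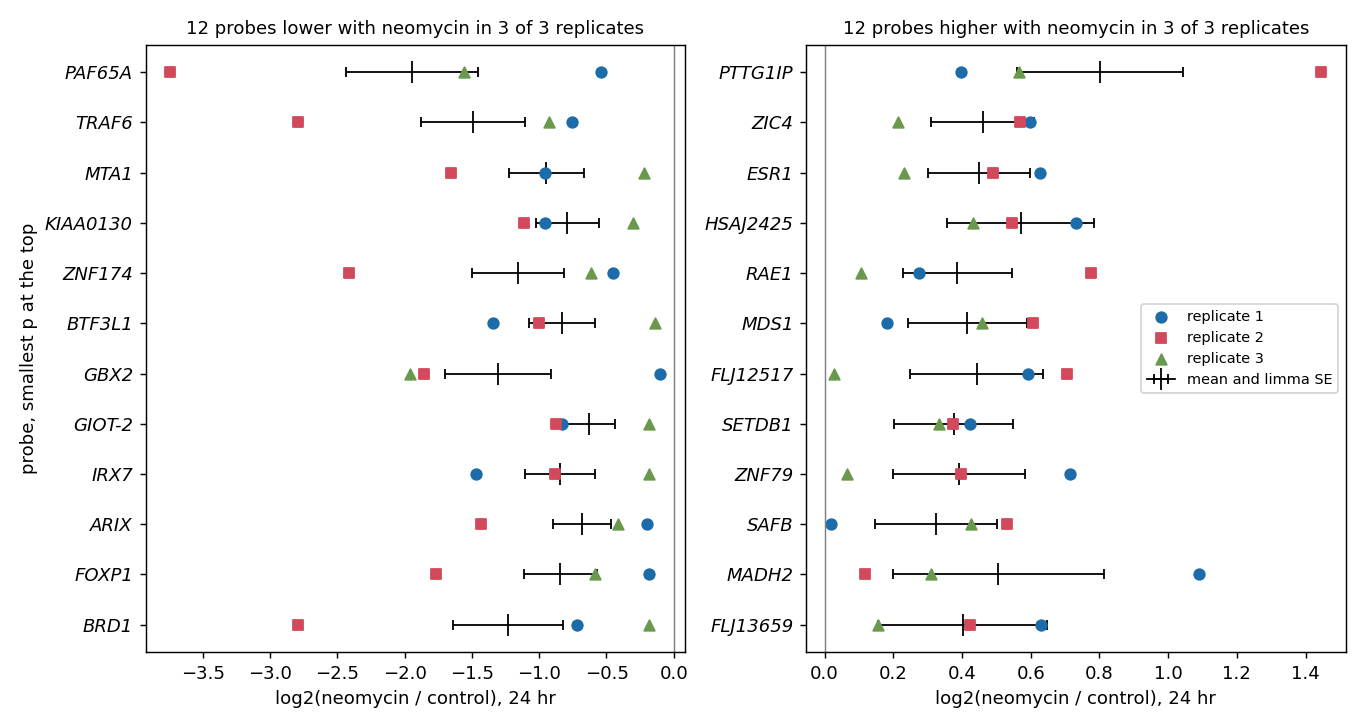
Log2 ratio of neomycin over control at 24 hr for the 12 probes lower (left) and the 12 higher (right) with neomycin in all 3 replicates, smallest p at the top. Coloured points are biological replicates, and the black bars are the mean and its limma standard error. That error uses 1 estimate of the spread shared by the 3 time points. The lower probes reach -3.74 in replicate 2 of PAF65A, and the higher probes stay below 1.5.

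The lowest p belonged to PAF65A, a histone-fold subunit of the human PCAF histone acetyltransferase complex, which opens chromatin for transcription. Its log2 ratio was -0.54, -3.74 and -1.56 in replicates 1, 2 and 3, with a mean of -1.95 ± 1.64 (SD, n = 3; limma adjusted p = 0.588). In linear terms its signal was 13.4-fold lower with neomycin in replicate 2, and 1.45-fold and 2.94-fold lower in replicates 1 and 3. PAF65A was saturated in 2 of the 32 array and dye combinations. On single arrays PAF65A was below 0 on 15 of 16, and in replicate 2 all 4 arrays lay between -4.13 and -3.51 whichever dye held the neomycin RNA. Its signal was above the negative controls on 87.5% of arrays in neomycin RNA, against 93.75% in control RNA. Without replicate 2 the mean was -1.05.

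TRAF6, an adaptor that carries signals from interleukin 1 and Toll-like receptors to NF-kappaB, was the only one of the 12 lower probes that was below 0 on all 16 arrays. Its log2 ratio was -0.75, -2.79 and -0.93 in replicates 1, 2 and 3, with a mean of -1.49 ± 1.13 (SD, n = 3; limma adjusted p = 0.588). Its signal was above the negative controls on 62.5% of arrays in neomycin RNA, against 100% in control RNA. In replicate 1, where many spots were dim, the 8 arrays still lay within a narrow range, between -0.89 and -0.56. TRAF6 averaged -0.84 without replicate 2.

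**Figure D3:**
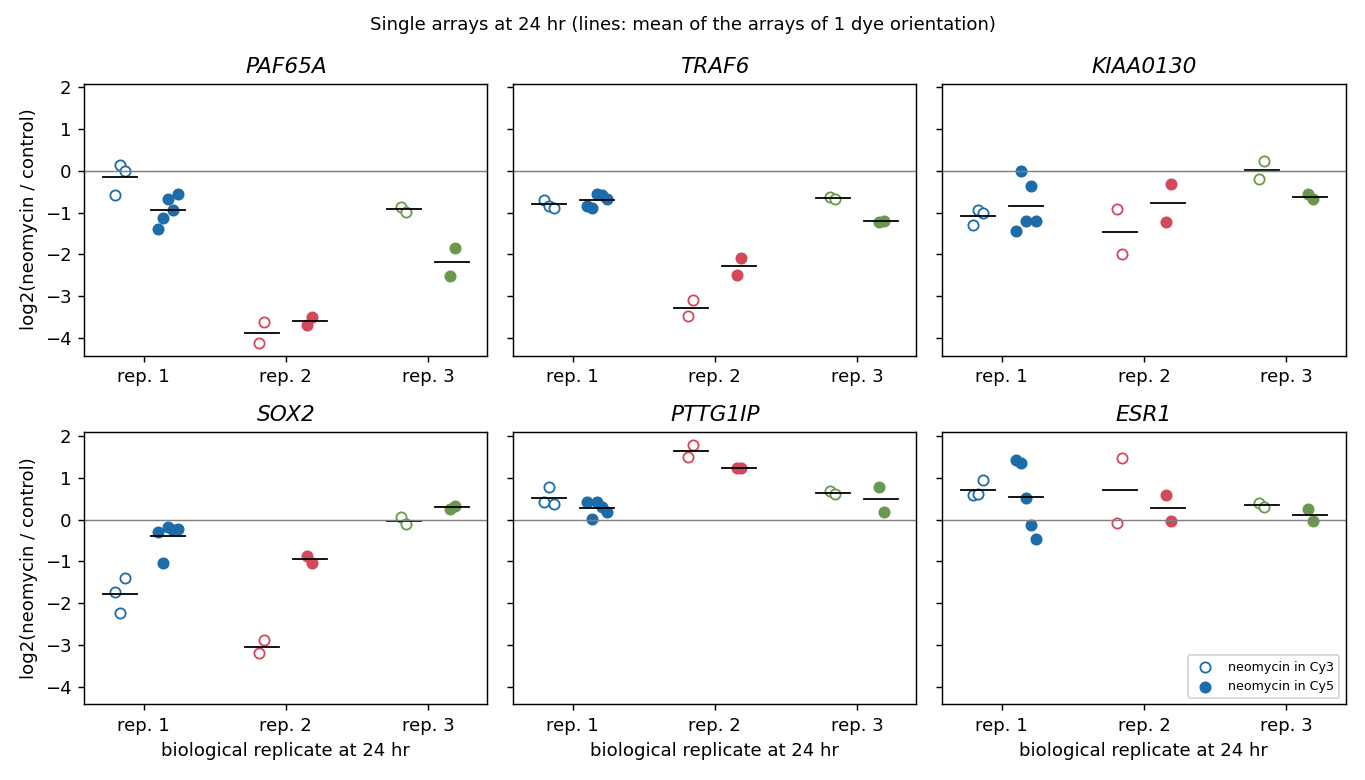
Log2 ratio of neomycin over control on each 24 hr array for 6 probes, by biological replicate. Open points are arrays with neomycin in Cy3, filled points are arrays with neomycin in Cy5, and black lines are the means of 1 dye orientation. TRAF6 lies below 0 and PTTG1IP above 0 on all 16 arrays, whereas SOX2 lies below 0 in replicates 1 and 2 and near 0 in replicate 3.

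Of the other lower probes, 4 were to cofactors or a relative of a basal factor. KIAA0130, a human name for a Mediator subunit that binds nuclear receptor complexes, was -0.96, -1.11 and -0.30 in replicates 1, 2 and 3 (mean -0.79 ± 0.43, SD, n = 3). MTA1, a subunit of the NuRD deacetylase and remodelling complex, was -0.96, -1.66 and -0.22, and its spread over single arrays was wide, with values between -3.09 and 0.59. BTF3L1, a relative of basal transcription factor BTF3, was -1.34, -1.0 and -0.14, with a signal above the negative controls on 18.75% of arrays in neomycin RNA, against 50% in control RNA. BRD1, a bromodomain scaffold of MYST acetyltransferase complexes, was -0.72, -2.79 and -0.19. These 4 probes were chosen as below 0 in all 3 replicates, and for each of them replicate 3 was the closest to 0.

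Families, set by patterns of gene names, were then counted for these cofactors. BRD1 fell outside the histone acetyltransferase family. The background was 6.16% of all tested probes lower and 2.18% higher at an unadjusted p under 0.05. Of 12 histone acetyltransferase probes 11 were tested: 2 averaged lower at that level (PAF65A and the MYST acetyltransferase MORF, mean -0.42), 0 averaged higher, and 10 of the 11 means were below 0. Of these 11 probes only PAF65A was above the negative controls, so that the size of the other ratios in this family is uncertain. Over all tested probes, 631 of 1282 means were below 0. The family medians were -0.21, -0.26 and -0.25 in the 3 replicates, with a median of the means of -0.06, while all tested probes had medians of 0.02, -0.02 and 0.00011. The adaptor TADA3L was -0.21, -0.52 and -0.31. All 12 Mediator probes were tested and 1, KIAA0130, was at that level; CRSP9, another Mediator subunit, had a mean of -0.80 that rested on a single value of -2.46 in replicate 2. In the NuRD and deacetylase family, with 9 of 9 probes tested, MTA1 was lower while its relative MTA1L1 was higher, with 0.14, 0.55 and 0.46 in the 3 replicates. Of these 9 probes only MTA1 was above the negative controls.

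The general transcription machinery, with 47 of 56 probes tested, was not shifted as a group. It held 2 lower and 2 higher probes at an unadjusted p under 0.05 (4.26% each), against 6.16% and 2.18% of all tested probes. Its replicate medians were 0.01, -0.08 and 0.02. The higher pair was GTF2A1, a subunit of TFIIA (0.88, 0.28 and 0.21), and BTF3 (0.27, 0.33 and 0.42). GTF2A1 averaged -0.31 with plain background subtraction, and in replicate 1 a single array lay at 3.21 while the others lay between 0.0083 and 0.93. BTF3L1 was chosen as lower in all 3 replicates, and its relative BTF3 had the opposite sign in each. Whether probes to related genes took signal from each other was not tested.

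Signalling genes around TRAF6 did not follow it as a group. All 13 probes of the NF-kappaB and TRAF family were tested, and its replicate medians were 0.05, -0.01 and 0.08. Beside TRAF6, the inhibitor NFKBIB averaged lower (-0.21, -0.91 and -0.18), and 0 members averaged higher at an unadjusted p under 0.05. All tested probes held 6.16% lower and 2.18% higher at that level. Of the 13 probes only TRAF6 was above the negative controls, so that the size of the other ratios in this family is uncertain. NFKB2, which encodes a precursor and subunit of NF-kappaB, was -0.34, 0.68 and 0.43, so that its sign differed between replicates. ATF4, a leucine zipper factor of the stress response, was -0.75, -0.71 and -0.07, but in replicate 1 it was -2.45 with neomycin in Cy3 and 0.95 with neomycin in Cy5. EGR1, an early growth response gene, was 0.39, 0.34 and 0.13.

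Homeobox and other developmental factors made up the next group of lower probes. GBX2, a homeobox gene of the developing hindbrain and ear, was -0.10, -1.85 and -1.96, so that replicate 3 was here as low as replicate 2. IRX7, of the Iroquois group, was -1.47, -0.88 and -0.18. ARIX, a paired-type homeobox factor of noradrenergic neurons, was -0.20, -1.43 and -0.42, and was above the negative controls on 25% of arrays in neomycin RNA, against 50% in control RNA. FOXP1, a forkhead repressor, was -0.18, -1.77 and -0.58, with a signal above the negative controls on 6.25% of arrays in neomycin RNA, against 50% in control RNA. Ratios of such probes rest on a neomycin signal near background and their size is uncertain.

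Counted by family, 4 of 22 tested forkhead probes (18.2%) averaged lower at an unadjusted p under 0.05 and 1 (4.55%) averaged higher. In all 3 replicates, 7 were lower and 3 higher. Over all tested probes, 6.16% averaged lower and 2.18% higher at that level, and 13.7% and 13.1% were lower and higher in all 3. The forkhead medians were -0.04, -0.23 and 0.02 in replicates 1, 2 and 3. Of the 22 probes, 3 were above the negative controls. FKHL18 was -0.33, -0.30 and -0.41, and FOXG1A, a forkhead gene of the forebrain and ear, was higher with 0.19, 0.56 and 0.15. Of 10 tested paired-type homeobox probes 2 averaged lower, ARIX and PMX1, and only ARIX was above the negative controls. PMX1, a mesenchymal gene that is also in the stromal marker list, was -0.51, -2.0 and -0.54, while its relative PMX2B was -0.44, -0.03 and -0.32. In the family of SIX-type, EYA and DACH genes, a network of ear development, 1 of 8 tested probes averaged lower at that level and 3 were lower in all 3 replicates, against 0 higher. Among those were SIX4 (-0.69, -1.98 and -0.67) and SIX3 (-0.79, -0.31 and -0.13). Of the 8 tested probes of this family 0 were above the negative controls, so that the size of these ratios is uncertain.

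Of 6 tested GATA family probes 1 averaged lower and 1 higher at an unadjusted p under 0.05. Each was 16.7% of this small family, against 6.16% and 2.18% of all tested probes. Of its 6 tested probes 1 was above the negative controls. The lower one was FOG2, a cofactor that binds GATA factors, at -0.67, -2.32 and -0.77. The higher one was GATA6, at 0.22, 0.27 and 0.46. GATA3, needed for the inner ear, was 0.46, 0.28 and 0.18 (unadjusted limma p = 0.085). Its signal was above the negative controls on 37.5% of arrays in neomycin RNA, against 12.5% in control RNA. With neomycin in Cy5, replicate 1 was 1.61, 1.52 and 1.41 on arrays 1, 2 and 3 but -0.95 and -0.44 on arrays 4 and 5. Replicate 3 was 0.53 and -0.41 in that orientation. In replicate 1, arrays 4 and 5 of that orientation were quantified on another day than arrays 1, 2 and 3. Of the 33 tested HOX cluster probes 1 was lower and 1 higher at an unadjusted p under 0.05, and 25 of the 33 means were above 0, against 651 of 1282 over all tested probes, with replicate medians of 0.09, 0.09 and -0.0024. Of these 33 probes 5 were above the negative controls. The HOX median ranged from -0.16 to 0.16 over the alternatives of processing, so that its sign depended on them. Of 21 tested ETS probes 1 was lower (ETV5) and 1 higher (ETV4) at that level, and 7 were higher and 1 lower in all 3 replicates, against 13.1% and 13.7% of all tested probes. Of these 21 probes 1 was above the negative controls, and the ETS median ranged from -0.06 to 0.17 over the same alternatives. ETV5 was the one lower in 3 replicates (-0.42, -0.45 and -0.27), while ETV4 (0.26, 0.42 and 0.39) and ELF5 (0.26, 0.56 and 0.07) were higher. ETV4 was printed as 2 probes, of which the dimmer was not tested; it was 0.18, -0.01 and 0.05.

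**Figure D4:**
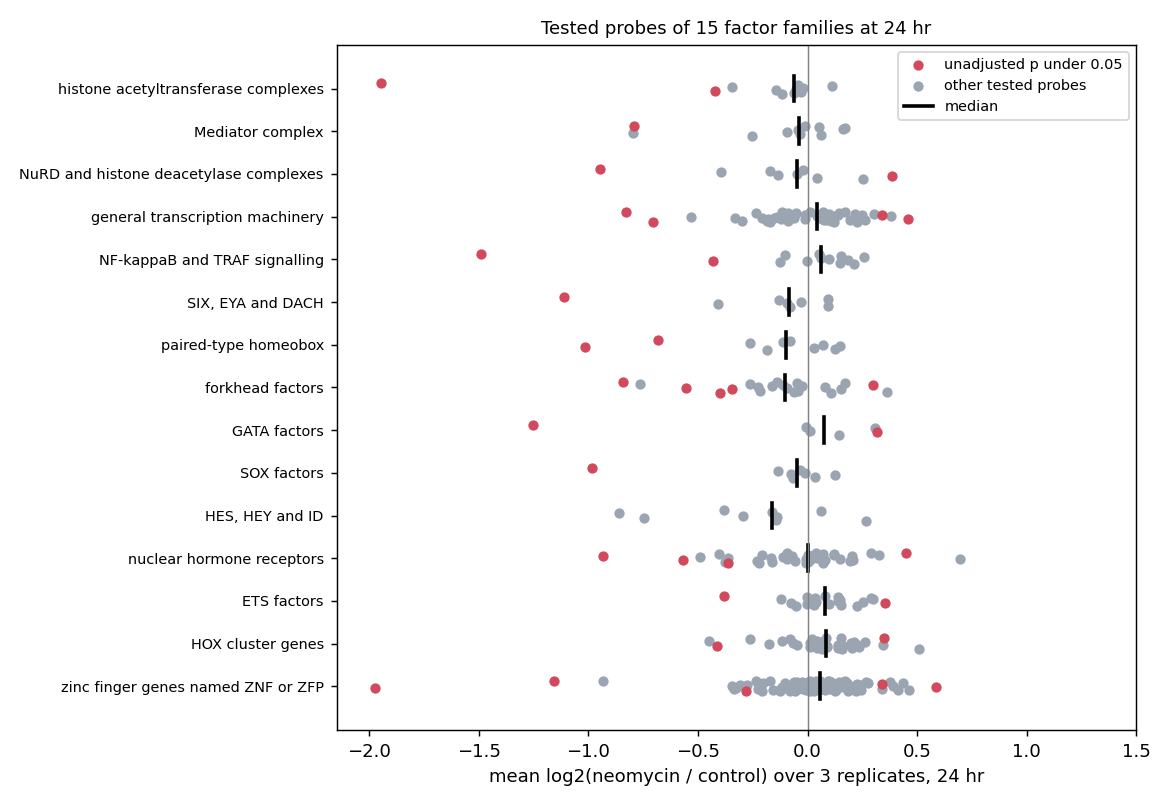
Mean log2 ratio of neomycin over control at 24 hr for each tested probe of 15 factor families. Red points have an unadjusted p under 0.05, grey points do not, and black bars are family medians. Most families centre on 0 with single probes far to the left, among them PAF65A at -1.95, TRAF6 at -1.49 and ZNF10 at -1.97.

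Zinc finger genes named ZNF or ZFP, the largest family with 109 of 168 probes tested, held 3 lower and 2 higher probes at an unadjusted p under 0.05, which is 2.75% and 1.83% of them against 6.16% and 2.18% of all tested probes. ZNF174, a SCAN domain repressor, was -0.45, -2.41 and -0.61. ZNF10 had the lowest mean of the family at -1.97, but its values were 0.00048, -4.49 and -1.43, so that replicate 1 showed no difference. ZNF74 was 0.43, -0.04 and 0.63. GIOT-2, a zinc finger repressor first described in the ovary, was -0.83, -0.87 and -0.19. PRDM13, a PR domain factor of neural tissue, was -0.48, -3.09 and -1.0, and its signal was saturated in 14 of the 32 array and dye combinations, and in replicate 1 its sign differed between dye orientations (-2.36 with neomycin in Cy3 and 1.41 in Cy5).

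Nuclear hormone receptors held 3 lower and 1 higher probe of 41 tested at an unadjusted p under 0.05. These were 7.32% and 2.44% of the family, close to the 6.16% and 2.18% of all tested probes. The higher one was ESR1, oestrogen receptor alpha, at 0.63, 0.49 and 0.23 (mean 0.45 ± 0.20, SD, n = 3; limma adjusted p = 0.588), and on single arrays ESR1 was above 0 on 11 of 16. NR1I3, a xenobiotic receptor, was -0.35, -2.55 and 0.11.

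PTTG1IP, which brings the securin PTTG1 into the nucleus, was the probe with the smallest p on the higher side and was above 0 on all 16 arrays. Its log2 ratio was 0.40, 1.45 and 0.57 in replicates 1, 2 and 3 (mean 0.80, limma adjusted p = 0.588). Its signal was above the negative controls on 50% of arrays in neomycin RNA and on 0% in control RNA. Only an approximate lower bound could therefore be given: the neomycin signal was 1.28-fold higher than the lowest signal above the negative controls in control RNA. This bound was not tested, and it took the neomycin signal as measured on all arrays. The bound sets the mean normalised neomycin log2 signal against the mean, over control channels, of the higher of that lowest signal and the probe's own.

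The other higher probes differed less, and all of them had means between 0.32 and 0.57. ZIC4, a zinc finger factor of the developing cerebellum, was 0.60, 0.57 and 0.21, and HSAJ2425 was 0.73, 0.54 and 0.43. RAE1, an mRNA export factor, was 0.27, 0.78 and 0.11, and MDS1, a gene of the leukaemia-associated MECOM locus, was 0.18, 0.61 and 0.46. SETDB1, a histone H3 lysine methyltransferase that silences chromatin, was 0.42, 0.37 and 0.33, the narrowest spread of the 12, but its mean turned to -0.067 on arrays with neomycin in Cy5 alone. MADH2, the TGF-beta effector SMAD2, was 1.09, 0.12 and 0.31, so that its mean of 0.51 rested on replicate 1. SAFB, a chromatin attachment factor, was 0.02, 0.53 and 0.43, and ZNF79 was 0.71, 0.40 and 0.06, with a mean of -0.16 on arrays with neomycin in Cy5 alone. FLJ12517 was 0.59, 0.71 and 0.03 and FLJ13659 was 0.63, 0.42 and 0.15. With neomycin in Cy5, FLJ12517 in replicate 1 was -0.42, -0.31 and -0.06 on arrays 1, 2 and 3. It was 1.55 and 1.35 on arrays 4 and 5, which were quantified on another day. MADH2 split the other way, with 1.15, 1.10 and 1.54 against -0.28 and 0.21. Of these 12 probes 7 had an unadjusted p under 0.05, and only 5 were above 0 in both dye orientations of every replicate. The same count was 7 among the 12 lower probes.

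Cell cycle genes were looked at because supporting cells divide after hair cell loss. MCM7, a subunit of the replicative helicase, had the third smallest p of all tested probes and the evenest values of the 5 smallest, with -0.65, -0.56 and -0.37 (mean -0.53 ± 0.14, SD, n = 3; limma adjusted p = 0.588). Its signal was above the negative controls on 6.25% of arrays in neomycin RNA and on 18.75% in control RNA, so that the ratio was measured near background, and in replicate 1 it was -1.20 with neomycin in Cy3 and -0.11 with neomycin in Cy5. It was the only one of 3 tested MCM probes at an unadjusted p under 0.05, and MCM4 was -0.20, 0.94 and -0.06. All tested probes held 6.16% lower and 2.18% higher at that level. Of 11 tested probes of the family that holds the E2F and RB genes 1 (9.09%) averaged lower at an unadjusted p under 0.05 and 0 higher. It was E2F2, an activator of S-phase genes, at -0.91, -0.72 and 0.04. Of the 11 tested probes of this family 0 were above the negative controls, so that the size of the E2F2 ratios is uncertain.

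Of 9 tested supporting cell markers 1, SOX2, averaged lower at an unadjusted p under 0.05, 0 were lower and 1 (GATA3) was higher in all 3 replicates. Among all tested probes, 6.16% averaged lower at that level, and 13.7% were lower and 13.1% higher in all 3 replicates. SOX2 was detected in both RNAs, above the negative controls on 75% of arrays in neomycin RNA, against 81.25% in control RNA. Its log2 ratio was -1.09, -2.0 and 0.13 in replicates 1, 2 and 3, with a mean of -0.99 ± 1.07 (SD, n = 3; limma adjusted p = 0.588). Replicates 1 and 2 were low and replicate 3 was not, and in both low replicates the arrays with neomycin in Cy3 were lower than those with neomycin in Cy5: -1.79 against -0.39 in replicate 1 and -3.05 against -0.95 in replicate 2. SOX2 was the only one of 8 tested SOX probes at an unadjusted p under 0.05. Of the Notch-responsive and ID genes, 0 of 9 tested probes were at that level. Of their 9 means 7 were below 0, against 631 of 1282 over all tested probes. Among the 152 probes above the negative controls, which included 4 of these 9, 100 had means below 0. ID1, an inhibitor of bHLH factors, was -0.13, -2.85 and 0.41, HES2, a Notch-pathway repressor, was -0.55, -2.21 and 0.53, and ID4 was -0.21, -0.88 and -0.05, so that the family median of -0.55 was seen in replicate 2 and not in replicates 1 (0.15) and 3 (-0.05).

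Markers of the cells in the epithelium were mostly near the limit of the cross-species arrays. Of 6 hair cell markers 5 were tested, with means between -0.13 and 0.09 and 0 at an unadjusted p under 0.05. POU4F3 was above the negative controls on 25% of arrays in each RNA, ATOH1 on 12.5% in neomycin and 6.25% in control RNA, and BARHL1 and EYA1 on 0%, so that the hair cell label could not be checked at this signal. Of the 13 supporting cell markers 3 (SOX2, ID1 and HEY2) were above the negative controls on at least 50% of arrays, and HEY2, a Notch target, was 0.27, 0.60 and -0.06. Among the other cell types, 1 of 10 stromal markers (PMX1), 1 of 9 tested blood and immune markers and 0 of 7 tested neuron markers averaged lower at that level, and 0 averaged higher. Over all tested probes these shares were 6.16% lower and 2.18% higher. The median of the stromal list was -0.12, with replicate medians between -0.19 and -0.09, and 0 of the stromal, blood or neuron markers were above the negative controls on at least 50% of arrays. The part of other cells in the differences above was not tested.

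The 24 hr values were then compared with the rest of the series. In limma, the difference between 24 hr and the mean of 0 and 48 hr had an adjusted p under 0.05 for 0 of 1282 probes (0%), with a smallest adjusted p of 0.981. At an unadjusted p under 0.05 there were 26 probes (2.03%), of which 13 were lower and 13 higher at 24 hr. PAF65A differed from the other times by -1.46 ± 0.60 (SE), and its mean of -1.95 at 24 hr stood against -0.75 at 0 hr and -0.23 at 48 hr. TRAF6 differed by -1.03 ± 0.47 (SE), with -1.49 at 24 hr against -0.86 at 0 hr and -0.07 at 48 hr. SOX2 differed by -1.06 ± 0.37 (SE). None of these differences passed the adjusted threshold. The SEs rest on 1 estimate of the spread shared by the 3 time points. At 24 hr alone the SD over replicates was 1.64 for PAF65A, 1.13 for TRAF6 and 1.07 for SOX2.

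The lower probes were mostly below 0 at the other times as well. All 12 averaged below 0 at 0 hr and at 48 hr, with a median of -0.90 at 24 hr against -0.43 at 0 hr and -0.10 at 48 hr. Of the wider group of 37 probes above the negative controls and lower in 3 replicates at 24 hr, 35 averaged below 0 at 0 hr and 32 at 48 hr, while of the 152 probes above the negative controls, from which they were chosen, 106 did so at 0 hr and 100 at 48 hr. The median of the 37 was 0.05, -0.76 and -0.37 in replicates 1, 2 and 3 of 0 hr and -0.59, 0.16 and -0.02 in those of 48 hr, so that it was carried by some replicates at each time. Of the 12 higher probes, 7 averaged above 0 at 0 hr and 6 at 48 hr. Those averaging below 0 were 5 at 0 hr and 6 at 48 hr, against 106 and 100 of the 152 probes above the negative controls. The medians of the 12 were 0.43 at 24 hr, 0.08 at 0 hr and 0.0068 at 48 hr.

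**Figure D5:**
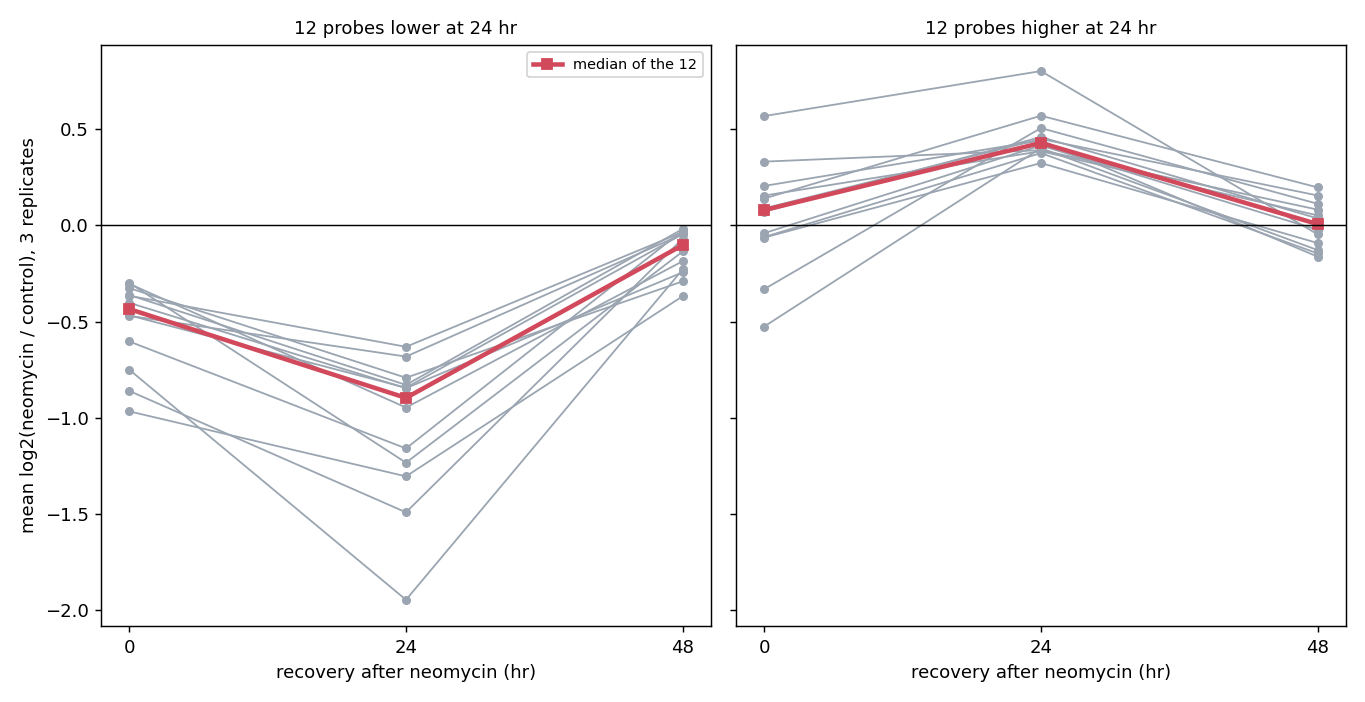
Mean log2 ratio of neomycin over control over 3 replicates at 0, 24 and 48 hr of recovery for the 12 probes lower (left) and the 12 higher (right) at 24 hr, which were chosen on their 24 hr values. Grey lines are single probes and the red line is their median, -0.90 for the lower and 0.43 for the higher probes at 24 hr.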

How the data were processed

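Neomycin and control RNA of chicken cochlear sensory epithelia had been hybridised together on 2-colour arrays of human transcription factor probes. Per the file headers, the deposited scanner files gave ImaGene spot and background intensity per dye without normalization. A deposited series table gave log2 values that equal the raw scanner ratio of neomycin to control, with array medians between -1.45 and 2.55 at 24 hr. It was used only as an alternative. The dye of the neomycin RNA came from the labels' suffix (3 for Cy3, 5 for Cy5). Image names at 24 hr labelled the control differently on some arrays of replicate 1 and, unlike those of replicates 2 and 3, did not state its recovery time; the sample labels were followed.

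Background correction of the intensity used normexp (offset 50), followed by within-array loess, control spots at weight 0 (R 4.3.3, limma 3.58.1; figures with Python 3.11.15 and matplotlib 3.10.9). Spots were averaged, arrays were averaged within suffix and then over both suffixes, and limma (lmFit, eBayes) was fitted over the 9 biological replicates of the 3 time points, which share 1 estimate of the spread. P-values were Benjamini-Hochberg adjusted over 1282 probes. The code was tested on simulated data with a fixed spread, which does not measure the power of the test in these data. The depth of an array measurement has no count; the number of arrays and replicates limits its precision. No spot carried a quality mark (0).

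Named probes were the 12 with the smallest p in each direction among those of 1 sign in 3 replicates and above the negative controls on at least 50% of arrays, the 5 with the smallest p of all, up to 3 members with the smallest p per family described, and family members that are cell type markers. ATF4, EGR1 and PRDM13 were named with their values seen. Some genes that the rule names are not reported here. Families were patterns of gene names; of the 48 families, those described were chosen with their values seen. The sample set, families, marker lists and rule were chosen with earlier results of these data known. Of 1507 gene names, 754 match a chicken symbol in RefSeq (GRCg7b), or 817 when synonyms count. The alternatives covered background correction, normalization, brightness filter, unit of the fit, dye orientation and left-out replicates.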

Additional observations from a re-analysis of the deposited data

Results flagged for a closer look

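Among the arrays of each 24 hr replicate (8, 4 and 4), 183 sets of values were screened for a single array far from the others, and 12 were found, where chance gives about 1 in 20. In replicate 1, suffix 5 array 2 had GIOT-2 at -1.76 while the other 7 arrays lay between -0.94 and -0.42. Suffix 3 array 2 of the same replicate had GTF2A1 at 3.21, others between 0.0083 and 0.93, and FLJ13659 at 2.36, others between -0.26 and 0.75. Suffix 5 array 5 had ETV5 at 1.71, others between -1.55 and -0.12, so that this array was the only one of replicate 1 with ETV5 above 0.

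In replicate 2, suffix 3 array 2 stood apart for 3 probes. HSAJ2425 was 1.99 there, others between 0.03 and 0.12, NFKB2 was 2.18, others between 0.02 and 0.32, and FKHL18 was -1.29, others between -0.0045 and 0.07. The replicate 2 values of these 3 probes therefore rested on 1 array.

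In replicate 3, suffix 3 array 2 had ZNF74 at 2.68 (others between -0.22 and 0.16), ELF5 at 0.64 (others between -0.19 and -0.08), SIX3 at 0.22 (others between -0.28 and -0.21) and SAFB at 0.25 (others between 0.47 and 0.49). Suffix 5 array 2 had 0.293% of Cy3 spots at or below background, others between 0% and 0.0326%.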

How the results depend on the processing

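The count of probes at an adjusted p under 0.05 at 24 hr was 0 with every background correction, normalization and filter, with the deposited matrix, and with each replicate left out (0 to 0). It was 37 with single arrays and the replicate as a random block, 29 with array weights as well, 70 when the random block was the quantification date, and 1 with suffix 5 arrays alone. The methods' t-test gave 64 over single arrays treated as independent and 0 on replicate values. The unadjusted count of 107 became 161 with the deposited matrix, 56 with the 24 hr replicates alone, 52 with the methods' t-test on replicate values, 258 with it over single arrays, 185 with the date as a block and 57 with suffix 5 alone, and ranged from 49 to 139 with 1 replicate left out. The share of lower probes among them was 73.8%, but 59.8% without background correction, 44.2% with the methods' t-test on replicate values and 46.9% without replicate 2. Chosen after seeing the data, leaving out the 24 hr arrays with over 50% of spots at or below background gave 151 unadjusted probes, 88 lower and 63 higher, and leaving out the later arrays of replicate 1 gave 103. With plain background subtraction loess gave no value for 626 probes of replicate 1 suffix 5 array 2, which were left out of the means.

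The difference between 24 hr and the other times had 0 adjusted calls in every alternative (0 to 0 without a replicate). The labels do not say that replicate numbers pair samples across times, and same-numbered replicates did not deviate together (correlations from -0.16 to 0.06); with the replicate number as a block the count was 0 adjusted and 25 unadjusted. There were 48 families, and those with at least 5 tested probes were counted here. This left out only the families of MCM, NFAT, heat shock, TFAP2 and grainyhead, and TRIP and COP9 signalosome genes. Of all the families counted, 7 had medians of 1 sign in all replicates, 6 below 0 (histone acetyltransferases among them) and 1 above. Over single tested probes, 13.7% were lower and 13.1% higher in all 3 replicates. The count of families was 14 with background subtraction, 11 with suffix 3, 15 with suffix 5, and 14 to 23 without 1 replicate, where fewer replicates must agree in sign. The histone acetyltransferase median ranged from -0.17 to -0.05 and moved by more than the spread between replicates in 8 of 16 alternatives. For 56 named genes, 7 changed sign in 1 alternative each: GTF2A1 (-0.31, background subtraction), SETDB1 (-0.067), ZNF79 (-0.16), ZNF74 (-0.072) and ATF4 (0.033) with suffix 5 alone, and CRSP9 and ID1 without replicate 2 (CRSP9 from -1.23 to 0.031 and ID1 from -1.49 to 0.14 over the left-out replicates).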

Other observations

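None of the 8 mismatch probes was above the negative controls on 50% of arrays, and the highest share was 37.5%, in neomycin RNA. The 5 probes with the smallest p for the difference between 24 hr and the mean of the other times were RUNX2 (-0.54), CROC4 (-0.58), E2F5 (-0.75), SOX2 (-1.06) and FLJ20392 (-0.59), with an adjusted p of 0.981 in limma for each, and they were picked after their values were seen.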
